A study of Mus musculus with 4 samples.

Results

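The 36 genes described here act in G2 and mitosis. They are the mitotic cyclins and kinases, the parts of the centromere, kinetochore and spindle, and the proteins that end cell division, taken by symbol from a fixed list. All 36 were found among the 26611 genes of the count table, and 36 were tested. The series measured RNA of natural killer (NK) cells from the spleens of individual mice of the C57BL/6 background. Of its 4 libraries, 2 came from wild-type mice (WT) and 2 from mice with a Tcf7 knock-out (KO), numbered 1 and 2 in either genotype. Cells had been sorted as negative for TCRbeta and positive for NK1.1, NKp46, CD11b and KLRG1, the last pair marking mature NK cells. The knocked-out gene encodes Tcf-1, a transcription factor of the Wnt pathway that is known for its part in lymphocyte development. The kind of knock-out allele and the age and sex of the mice are not given in the sources used here.

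A cell entering mitosis builds up cyclins A and B, which switch on the kinase Cdk1. Spindle microtubules then attach to kinetochores on the chromosomes, a checkpoint holds division until every kinetochore is attached, and the anaphase-promoting complex tags cyclin B and other proteins for destruction. Transcripts of this machinery are low in resting lymphocytes and are made mostly in G2 and mitosis, so their sum in bulk RNA follows how many cells divide and how much RNA each holds. Mature CD11b+ KLRG1+ NK cells are known to divide little. Many of the genes share promoter elements: CCAAT boxes, bound by the factor NF-Y, and the cell cycle genes homology region (CHR), bound by the MuvB complexes that repress these genes in resting cells.

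The upstream promoter bases of 6 of the genes are shown because they carry these shared elements. The 6 were chosen with their values known: the cyclin B genes and their kinase, Top2a, and a pair of genes of mitotic exit that differed between genotypes to unlike extents. Each line gives the 110 bases before an annotated start of the gene, 5′ to 3′ on the gene's strand, from RefSeq on GRCm38.p6 (mm10). For Top2a the last bases printed lie inside the annotated span of the gene, which runs to 99024199. Capitals mark CCAAT or TTTGAA, or either one read from the opposite strand (ATTGG or TTCAAA).
Ccnb2, minus strand, chr9:70421555-70421664: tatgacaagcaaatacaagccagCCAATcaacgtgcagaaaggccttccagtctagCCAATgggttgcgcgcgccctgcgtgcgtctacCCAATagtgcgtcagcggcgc
Ccnb1, minus strand, chr13:100786487-100786596: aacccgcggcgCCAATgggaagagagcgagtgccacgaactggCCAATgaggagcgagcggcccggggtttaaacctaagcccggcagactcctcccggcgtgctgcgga
Cdk1, minus strand, chr10:69352913-69353022: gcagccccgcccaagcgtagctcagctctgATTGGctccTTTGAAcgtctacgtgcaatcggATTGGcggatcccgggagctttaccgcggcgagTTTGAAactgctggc
Top2a, minus strand, chr11:99024190-99024299: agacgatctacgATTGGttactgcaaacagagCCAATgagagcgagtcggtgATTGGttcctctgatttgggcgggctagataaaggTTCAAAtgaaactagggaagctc
Ube2c, plus strand, chr2:164769819-164769928: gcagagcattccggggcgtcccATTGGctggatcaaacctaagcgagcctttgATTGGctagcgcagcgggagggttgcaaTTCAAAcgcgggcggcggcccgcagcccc
Cdc20, minus strand, chr4:118437344-118437453: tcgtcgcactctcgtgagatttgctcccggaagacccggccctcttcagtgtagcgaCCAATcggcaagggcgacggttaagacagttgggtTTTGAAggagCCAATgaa

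A promoter window, 250 bases before to 50 after the start, was at hand for 32 of the 36 genes. TTTGAA, the core of the CHR, was found on either strand in 25 of the 32 windows, against 20.2% of the 27025 genes with a window and 14.6% of the genes tested here. CCAAT was found in 26 of 32, against 41.1% of all genes with a window. Within 50 bases of the start, TTTGAA was present in 23 of the 32 genes and in 5.72% of all genes. In the window of Ccnb2 it began 167 bases before and at base 5 after the start, outside the printed stretch, and Ccnb1 held none. CTTTGA, the core recognised by factors of the Tcf/Lef family to which Tcf-1 belongs, was in 5 of 32 windows (15.6%) against 18.2% of all genes and 14.1% of the genes tested here. It overlaps TTTGAA where CTTTGAA occurs. These are matches of letters in 1 window per annotated start and say nothing of binding. The 25 genes with TTTGAA had a median log2 fold change (KO minus WT) of 1.13 and the 7 without it one of 1.66, given as a description.

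Total counts were 28254693 to 40175537 per library. Levels are counts scaled to library size and by TMM factors, given as CPM, where 1 CPM stands for about 28.3 to 40.2 counts, so that the values below 1 CPM rest on few reads. Tcf7 itself stood at 89.4 and 79.1 CPM in WT and at 11.2 and 25.04 CPM in KO libraries, and the exons behind the remaining reads are not shown by counts per gene. With 2 libraries a group, no exact permutation p can fall below 0.333, and p-values come from models that share the spread across genes. Each library came from its own mouse, per the series' design, and the spread between libraries can hold technical differences too. Deviations from the genotype mean correlated at 0.728 between libraries of the same number across the tested genes, so the spread within either genotype ran in part along the same genes. With 2 libraries a group, pairing them the other way would only turn the sign, so the value cannot show that a number marks something shared.

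Transcripts of the mitotic machinery were scarce in WT cells and lay higher in KO cells as a group. The median of the 36 genes was 1.69 and 1.40 CPM in WT libraries 1 and 2, and 4.99 and 3.54 CPM in KO libraries 1 and 2. Per kilobase of gene length the median went from 0.657 CPM (WT) to 1.61 CPM (KO), where the median over all tested genes was 8.60 and 8.54. All 36 had a log2 fold change above 0, which 48.2% of tested genes had, and in 22 it was above 1, which 3.61% of tested genes had. The median over the 36 was 1.21, against -0.01 over the 12723 genes tested. The directions of Mki67, Aurka, Cks2 and Cenpe turned with a library left out in at least 1 of the tools, as given with each.

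Single genes rarely passed a test at this sample size. Under edgeR's quasi-likelihood test, 0 of the 36 genes passed an adjusted p under 0.05, and 0% of all tested genes did. At an unadjusted p under 0.05 there were 14 members, all higher in KO, where 1.7% of tested genes were higher and 1.14% lower. That count was 7 without WT library 1, 6 without WT library 2 and 8 without KO library 1. The share of all tested genes at that level is not given for fits with a library left out, so those counts are descriptions only. DESeq2 called 1 member, Ccnb2, where it called 0.377% of genes higher, and limma voom called 0 members and 0 genes. With the library number as a block, whose basis the labels do not give, edgeR called 7 members (Top2a, Ccna2, Ccnb2, Bub1, Aurkb, Birc5 and Cdca3), all higher in KO, where it called 1.07% of tested genes higher and 0.668% lower. In 29 of the 36 both KO libraries lay above both WT libraries, a pattern held by 9.64% of tested genes. Leaving out a library can only keep or raise this count (32 or 33), so those counts are no check on it. Among genes with a mean of 1 to 10 CPM, where most of the members lie, 12.4% had this pattern and 6.99% a log2 fold change above 1. Of the 26 members in that range, 23 and 16 did. In both WT libraries, 31 of the 36 reached the filter level of 10 counts in the median library, and the rest were tested only because a KO library reached it. In 8 members both WT libraries were under 1 CPM.

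**Figure D1:**
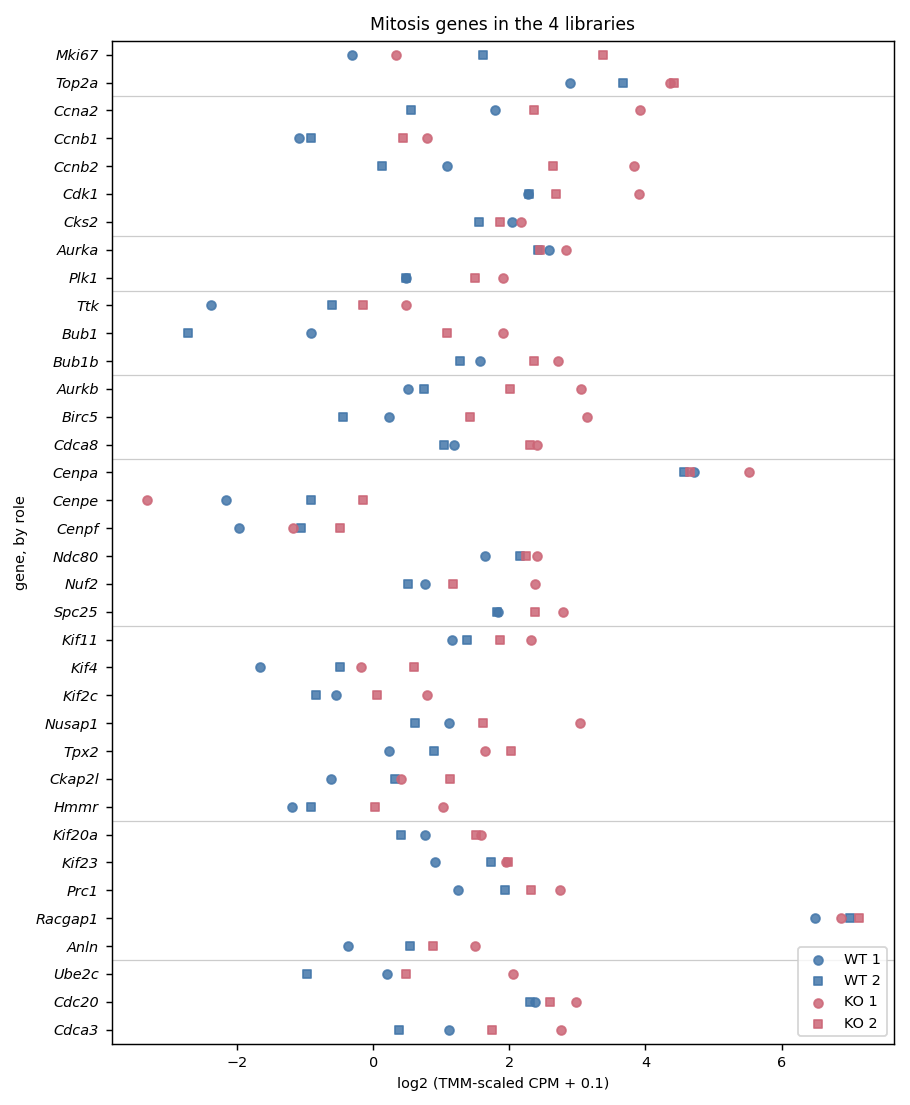
Level of each mitosis gene in each library, as log2 of TMM-scaled CPM plus 0.1, by role of the gene (circles: libraries numbered 1, squares: numbered 2; blue: WT, red: KO). In 29 of 36 genes both red points lie to the right of both blue points; Racgap1 and Cenpa stand apart as the highest, and Cenpe, with 0 counts in KO library 1, overlaps.

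The cyclins and their kinase held the one called gene. Ccnb2, which encodes cyclin B2, an activator of Cdk1 (Entrez gene 12442; chromosome 9, 70407689 to 70421554), was counted 66 and 39 times in WT and 413 and 221 times in KO libraries. That is 2.03 and 0.993 CPM in WT against 14.1 and 6.13 CPM in KO, so the lower KO library was still well above the higher WT library. Its log2 fold change of 2.74 (SE 0.62) had an adjusted p of 1.00 by edgeR and 0.00451 by DESeq2. DESeq2 no longer called it after leaving out WT library 2 (adjusted p = 0.583), nor after leaving out KO library 1 (0.755). edgeR called the gene without KO library 2 (0.0148). Its close relative Ccnb1, the main mitotic cyclin, was much scarcer, at 0.369 and 0.433 CPM in WT against 1.64 and 1.25 CPM in KO (1.83 as log2 fold change, SE 0.50), again with no overlap. Per kilobase, Ccnb2 stood at 0.981 CPM in WT and 6.55 in KO cells, and Ccnb1 at 0.173 and 0.623.

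Ccna2, which encodes cyclin A2 of S phase and G2, had 3.35 and 1.37 CPM in WT against 15.1 and 5.05 CPM in KO (2.09, SE 0.74). Here library 1 was higher than library 2 within each genotype, as for Ccnb2. Cdk1 was even between the WT libraries, at 4.74 and 4.78 CPM, and uneven between the KO libraries, at 14.8 and 6.35 CPM (1.15, SE 0.48). Cks2, a small subunit bound by Cdk1, differed least in this set (0.21, SE 0.36) and its groups overlapped, and DESeq2 gave a log2 fold change of -0.0035 without WT library 2. None of these 4 was called by edgeR or DESeq2 with genotype alone and all libraries. Both tools called Ccna2 with the library number as a block, and DESeq2 did without KO library 2.

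Top2a encodes topoisomerase II alpha, which untangles sister chromosomes. It stood at 7.35 and 12.6 CPM in WT against 20.5 and 21.3 CPM in KO (1.07 as log2 fold change, SE 0.33; 2.10-fold on the means). The KO libraries were nearly alike and the WT libraries differed. Mki67, the gene of the proliferation antigen Ki-67, had 0.707 and 2.95 CPM in WT against 1.16 and 10.2 CPM in KO (1.63, SE 1.23). Both libraries numbered 2 were higher than both numbered 1, so the genotypes overlapped, and the log2 fold change turned to -0.63 once KO library 2 was left out.

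Among the mitotic kinases that ripen centrosomes and start spindle assembly, the Polo kinase gene Plk1 had 1.29 and 1.30 CPM in WT against 3.65 and 2.72 CPM in KO (1.29, SE 0.39). The WT libraries were all but equal and both KO libraries were above them. Aurka, the Aurora A gene, hardly parted the genotypes, with 5.90 and 5.24 CPM in WT against 7.02 and 5.38 CPM in KO (0.15, SE 0.30), and its sign turned to -0.05 without KO library 1. Neither of the 2 was called by edgeR or DESeq2.

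All 3 spindle checkpoint genes lay higher in both KO libraries. Bub1, a checkpoint kinase of the kinetochore, was nearly missing from WT cells, with 14 and 2 counts, and had 107 and 73 counts in KO. In CPM this was 0.431 and 0.0509 against 3.65 and 2.02 (log2 fold change 3.57, SE 1.03; DESeq2 adjusted p = 0.0512). Because WT library 2 held 2 reads, the ratio of the libraries numbered 2, 39.8-fold, has a 95% exact counting interval of 10.6 to 335. Bub1b, which encodes the checkpoint protein BubR1, was steadier, at 2.86 and 2.32 CPM in WT against 6.44 and 5.05 CPM in KO (1.15, SE 0.34). Ttk, the gene of the checkpoint kinase Mps1, had 3 and 22 counts in WT and 38 and 29 in KO (0.0923 and 0.560 against 1.29 and 0.804 CPM). Its 14.0-fold ratio between the libraries numbered 1 has an interval of 4.45 to 71.1.

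The chromosomal passenger complex corrects faulty attachments and guides cytokinesis, and its 3 genes in the set had no overlap between genotypes. Birc5, which encodes survivin, the subunit that docks the complex on centromeres, stood at 1.08 and 0.636 CPM in WT against 8.76 and 2.58 CPM in KO (2.72, SE 0.75). The kinase gene Aurkb had 1.32 and 1.58 CPM in WT against 8.21 and 3.91 CPM in KO (2.06, SE 0.50). Cdca8, which encodes borealin, was the most even within genotypes, at 2.18 and 1.96 against 5.18 and 4.82 CPM (1.27, SE 0.32). Their DESeq2 adjusted p-values were 0.0512, 0.0558 and 0.296. In the same order, edgeR's log2 fold changes were 1.59, 1.43 and 1.22 without KO library 1, and 3.39, 2.53 and 1.355 without KO library 2. Unlike Aurkb, the related kinase gene Aurka showed overlap, though the difference between the pair was not tested.

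The 6 centromere and kinetochore genes had log2 fold changes of 0.42 to 1.31, with a median of 0.66, and 3 of them had no overlap between genotypes. Cenpa, which encodes the histone H3 variant that marks centromeres, was the second highest member, at 26.1 and 23.6 CPM in WT against 45.9 and 25.2 CPM in KO (0.51, SE 0.36), and KO library 2 lay between the WT libraries. Spc25 and Ndc80 encode subunits of the complex that grips microtubules. Spc25 had 3.48 and 3.41 CPM in WT against 6.78 and 5.07 CPM in KO (0.78, SE 0.32), and Ndc80 had 3.01 and 4.35 against 5.21 and 4.63 CPM (0.42, SE 0.34). The third subunit gene of that complex, Nuf2, had a log2 fold change of 1.31 (SE 0.55). Cenpe, a kinetochore motor gene, and Cenpf were under 1 CPM in every library and overlapped. Cenpe was counted 4 and 17 times in WT and 0 and 29 times in KO, where 0 counts allow up to 0.102 CPM, and its direction turned without WT library 1 (log2 fold change -0.08) or KO library 2 (-6.26, a fitted value against a library with 0 counts) and with limma voom (-0.98) or DESeq2 with the block (-0.81). None of the 6 had an unadjusted edgeR p under 0.05.

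All 7 genes of spindle motors and microtubule proteins had both KO libraries above both WT libraries. Nusap1, whose product bundles spindle microtubules, stood at 2.06 and 1.43 CPM in WT against 8.08 and 2.97 CPM in KO (1.66, SE 0.61). Tpx2, an activator of Aurora A on the spindle, had 1.08 and 1.76 CPM in WT against 3.03 and 3.97 CPM in KO (1.30, SE 0.44). Here the libraries numbered 2 were the higher ones, the reverse of Nusap1. Kif11, the motor that pushes spindle poles apart, had 2.12 and 2.49 against 4.91 and 3.55 CPM (0.87, SE 0.36). Hmmr, a spindle pole protein also known as a hyaluronan receptor, was low, at 0.338 and 0.433 against 1.94 and 0.915 CPM (1.87, SE 0.62). The chromokinesin gene Kif4, the microtubule depolymerase gene Kif2c and Ckap2l had log2 fold changes of 1.40, 1.30 and 0.95. None of the 7 was called by edgeR or DESeq2 with genotype alone, and DESeq2 called Nusap1 with the library number as a block.

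The genes of the spindle midzone and cytokinesis included the most abundant member. Racgap1, whose product joins the motor Kif23 in the centralspindlin complex, stood at 89.4 and 128 CPM in WT against 118 and 140 CPM in KO (0.25, SE 0.27), with overlap. It made up 33.4% to 56.8% of the summed CPM of the 36 genes in a library, and the group is described by medians, in which each gene counts alike. Per kilobase it stood at 35.5 CPM in WT, against 0.728 for its partner Kif23. Prc1, which cross-links midzone microtubules, had 2.28 and 3.74 against 6.58 and 4.91 CPM (0.93, SE 0.40), and Kif23 had 1.78 and 3.21 against 3.78 and 3.85 CPM (0.61, SE 0.43). Kif20a, a midzone motor gene, and Anln, a scaffold gene of the contractile ring, had log2 fold changes of 1.00 and 1.13 with no overlap.

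Mitotic exit depends on the anaphase-promoting complex, and the genes of exit parted to unlike extents. Ube2c, the ubiquitin-conjugating enzyme of that complex, stood at 1.05 and 0.407 CPM in WT against 4.06 and 1.30 CPM in KO (1.88, SE 0.82). Cdca3, known as a trigger of mitotic entry, had 2.06 and 1.20 against 6.68 and 3.24 CPM (1.61, SE 0.55). Cdc20, an activator of the complex, had 5.11 and 4.86 against 7.77 and 5.96 CPM (0.46, SE 0.29). All 3 had no overlap. None was called by edgeR or DESeq2 with genotype alone, and both tools called Cdca3 with the library number as a block. The printed upstream bases of Ube2c and Cdc20 both hold CCAAT boxes and TTTGAA.

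**Figure D2:**
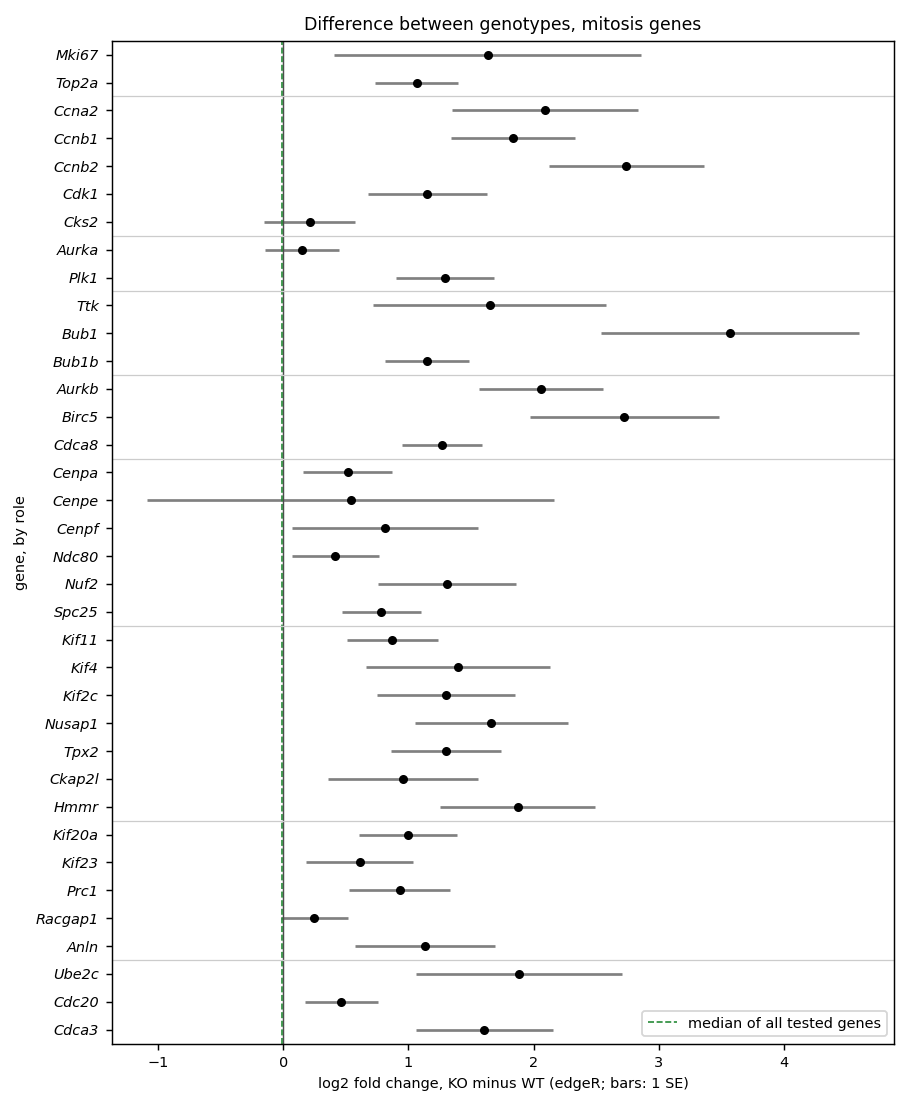
Fold change of each mitosis gene between genotypes (edgeR log2 fold change, KO minus WT; bars are 1 SE), by role; the dashed line is the median of all tested genes. All 36 points lie to the right of 0, between 0.15 for Aurka and 3.57 for Bub1. The widest bar belongs to Cenpe, which has few counts, and the next to Mki67, whose libraries differ widely within either genotype.

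Within libraries of the same number, with 0.1 CPM added, 35 of 36 genes were higher in KO in both numbers, the exception being Cenpe. Of all tested genes 26.2% were. On the log2 scale, KO exceeded WT by a median of 1.42 in the libraries numbered 1 and by 0.85 in the others. The highest of the 4 libraries was KO library 1 for 27 genes, KO library 2 for 9 and a WT library for none. Replicates of a genotype themselves differed, by a median of 0.52 between the WT libraries and 0.66 between the KO libraries on the absolute log2 scale. In 19 of 36 genes the difference of the genotype means in CPM exceeded the difference within either genotype. The share of all tested genes for which this holds was not computed, so the count is a description only.

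**Figure D3:**
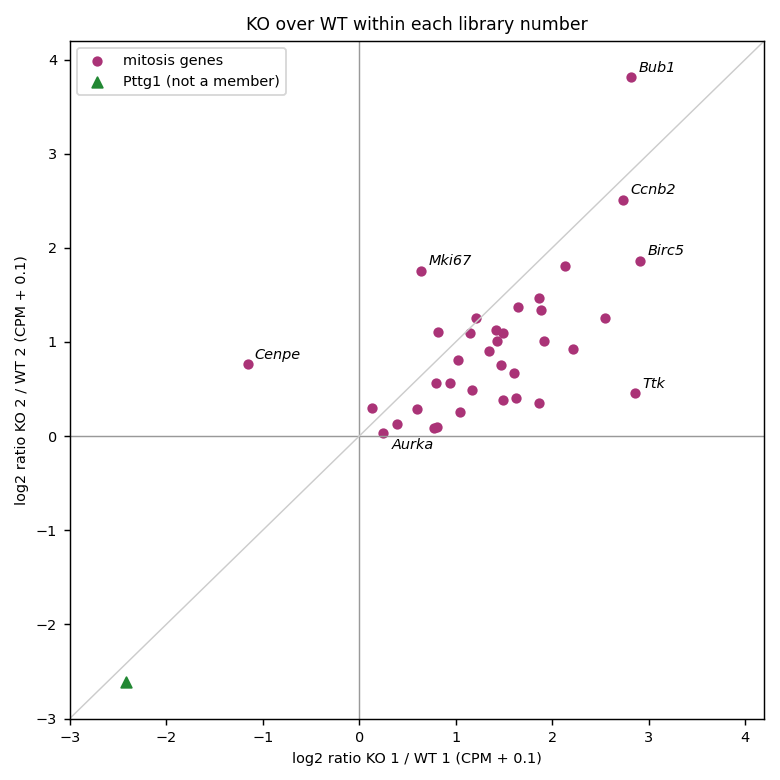
Log2 ratio of KO to WT between the libraries numbered 1 (horizontal) and those numbered 2 (vertical) for the mitosis genes and for Pttg1; the diagonal marks equal ratios. All genes but Cenpe lie in the upper right field, most of them below the diagonal, and Pttg1 lies at -2.42 and -2.61.

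Other genes of the cell cycle were read from lists that did not include the 36. Of 50 further G2 and mitosis genes, 49 were tested, 45 had a log2 fold change above 0, and the median was 0.61. That median was 0.94 without WT library 2. edgeR called 0 of them, with 10 higher and 1 lower at an unadjusted p under 0.05 (1.7% and 1.14% of all tested genes). Both KO libraries were above both WT libraries in 27 (9.64% of all tested genes) and below in 1 (11.6% of all tested genes). That gene was Pttg1, which encodes securin, the inhibitor of separase that is destroyed at anaphase (Entrez gene 30939; chromosome 11, 43420244 to 43427463). Pttg1 stood at 44.1 and 38.6 CPM in WT against 8.14 and 6.24 CPM in KO (-2.52 as log2 fold change, SE 0.26). It fell by DESeq2 (adjusted p = 4.21e-09), with any library left out too (5.67e-06 to 0.0396), while edgeR gave an adjusted p of 0.561 and called it where a KO library was left out (0.0200 and 0.0338), low counts were not filtered (0.000329) or the library number was a block (5.20e-05). DESeq2 called 0.181% of tested genes lower. Tcf7 lies on the same chromosome as Pttg1 (52246527 to 52283383), and whether the position bears on its level was not tested. At 23.8 CPM per kilobase in WT cells, Pttg1 was well above the median of the 36 members, and its course was opposite to theirs. The kinesin gene Kif18b had 7 and 6 counts in WT, under the filter level of 10 counts in the median library. It was thus tested only through its KO libraries. DESeq2 also called this gene, at 0.215 and 0.153 against 1.47 and 1.58 CPM (3.03, SE 0.54; adjusted p = 0.0288). That call was lost with any library left out (0.761 to 1.00), where DESeq2's log2 fold change was 2.83 to 3.35, and with the library number as a block both edgeR (0.0247) and DESeq2 (0.0384) called the gene. Bub3, the most abundant of the list, had 152 and 123 against 184 and 130 CPM (0.19, SE 0.27), and its sign turned without KO library 1 (-0.08).

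DNA replication and G1/S genes moved less than mitosis genes in their median, though that difference was not tested. Of 30 tested, 27 were above 0 (48.2% of all tested genes) with a median of 0.21. At an unadjusted edgeR p under 0.05, 5 were higher, where 1.7% of tested genes were. The median was 0.50 without KO library 2. Both KO libraries were above both WT libraries in 16 of the 30, a pattern of 9.64% of tested genes. The log2 fold changes ran from -0.22 to 2.00, the highest being that of Cdc6, which loads the replicative helicase. The most abundant were the helicase genes Mcm6 (0.10) and Mcm4 (-0.04) and the sliding clamp gene Pcna (0.27), all given as log2 fold changes with SEs of 0.19 to 0.32. Mcm4 turned positive without WT library 2 or KO library 1, and Pcna turned to -0.08 without KO library 1. The median level of this list was 10.6 CPM in WT cells, so these transcripts were not scarce as the mitosis genes were.

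Genes that regulate the mitotic program did not part the genotypes as a list. Of 16 tested, 8 were above 0, with a median of -0.02. Foxm1, the activator of G2 and mitosis genes, stood at 2.09 and 5.34 CPM in WT against 2.56 and 7.43 CPM in KO (0.43, SE 0.73), with both libraries numbered 2 the higher, and its sign turned without WT library 1 or KO library 2. Mybl2, which encodes B-Myb, a partner of MuvB, had 3 and 19 counts in WT and 28 and 14 in KO (1.18, SE 0.98). Rbbp4, the most abundant, differed by 0.06, with a sign that depended on the library left out. Of 12 inhibitors of cyclin-dependent kinases and genes of quiescence, 2 had a log2 fold change above 0, with a median of -0.15. Within both library numbers 10 were lower in KO, as were 3928 of the 12723 tested genes. In 3 of them both KO libraries were below both WT libraries, a pattern of 11.6% of tested genes. The quiescence factor Klf2 (-0.06) and the antiproliferative genes Btg1 (-0.21) and Btg2 (-0.10) were the most abundant of these, and Klf2 and Btg2 turned positive with some libraries left out. edgeR called 0 genes of either list, and 0 in each were at an unadjusted p under 0.05, while DESeq2 called 0.

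**Figure D4:**
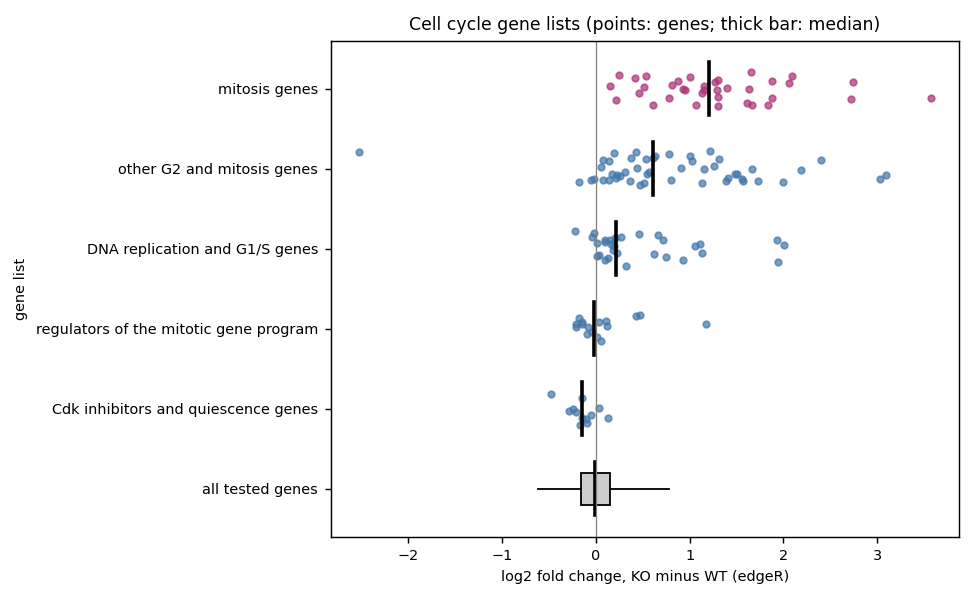
Log2 fold change (edgeR, KO minus WT) of each tested gene in 5 lists, with thick bars at the medians; for all tested genes the box spans the middle 50%, the line runs from the 5th to the 95th percentile. The mitosis genes have the highest median, 1.21, and the lone low point among the other G2 and mitosis genes is Pttg1.

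Of the markers of other cells, the erythroid and granulocyte sums were higher in both KO libraries than in both WT libraries. The sums of B cell, T cell and monocyte lists, given below, overlapped between genotypes. By gene, 8 of 10 tested B and plasma cell markers had a log2 fold change above 0 (median 0.21). So had 11 of 11 monocyte, macrophage and dendritic markers (0.69) and 5 of 11 T cell markers (-0.004). Of these 3 lists DESeq2 called only 1 gene higher, a T cell marker, where it called 0.377% of all tested genes higher. The 12 NK cell markers summed to 38468 and 32219 CPM in WT against 40445 and 32361 CPM in KO, with 6 of 12 above 0, so the labelled cell type was present in all 4. Erythroid markers summed to 43.4 and 32.5 CPM in WT against 226 and 132 CPM in KO. Of these, 9 of 9 tested were above 0 (48.2% of all tested genes) and DESeq2 called 3 higher (0.377%). Neutrophil and granulocyte precursor markers summed to 31.6 and 1.43 CPM in WT against 448 and 97.5 CPM in KO. Of these, 10 of 10 tested were above 0 (48.2% of all tested genes) and DESeq2 called 4 higher (0.377%). In WT libraries 1 and 2, 1 and 6 of the 12 were at 0. A marker at 0 in WT library 2 could pass the filter only with a KO library, so the count above 0 was in part fixed by the filter. The part of these cells in the mitosis genes was not tested.

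Within library numbers the marker lists took different courses. Between the libraries numbered 2, 8 of 9 erythroid markers were higher in KO, with a median log2 ratio of 1.28, against 9 of 9 and 2.43 between those numbered 1. Granulocyte markers were higher in KO in 10 of 10 for either number, with medians of 4.99 for number 2 and 4.23 for number 1. The sums of B and plasma cell markers were 423 and 697 CPM (WT, then KO) for number 1 and 336 and 411 CPM for number 2. T cell markers summed to 233 and 313 CPM for number 1 and to 187 and 179 CPM for number 2. Monocyte, macrophage and dendritic markers summed to 136 and 340 CPM for number 1 and to 30.9 and 45.3 CPM for number 2. In bulk RNA, more dividing cells and more of these transcripts per cell cannot be told apart.

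**Figure D5:**
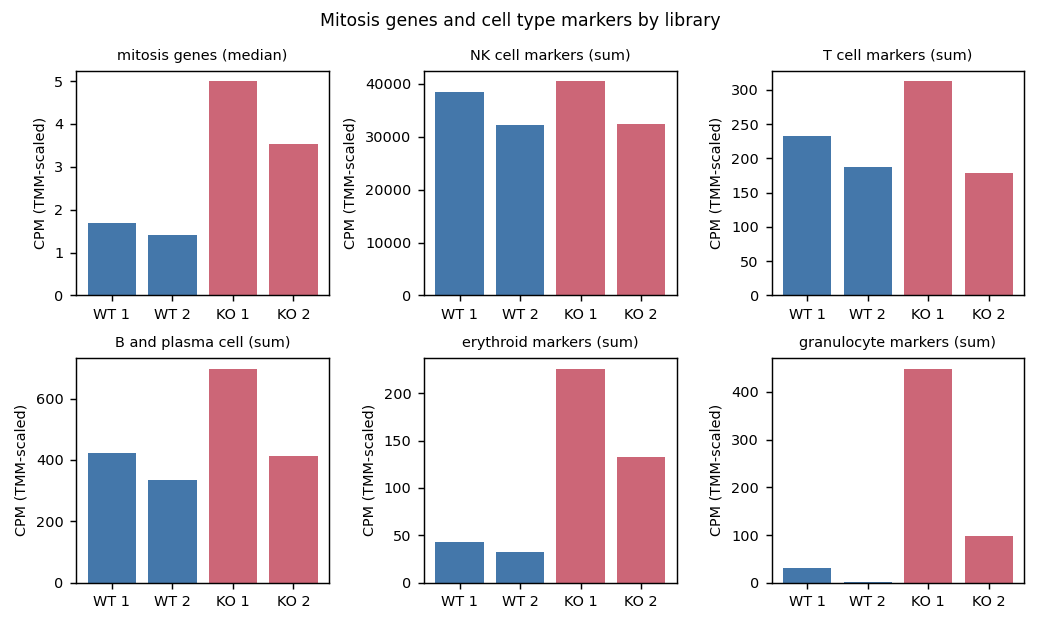
Median TMM-scaled CPM of the 36 mitosis genes (first panel) and summed TMM-scaled CPM of 5 marker lists in each library (blue: WT, red: KO; axes start at 0). The mitosis median, the erythroid sum and the granulocyte sum are higher in both KO libraries than in both WT libraries, and the NK cell sum is not.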

How the data were processed

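The authors deposited whole-number counts of reads per Entrez gene with a gene length, per the file headers, and the submitters' processing notes name featureCounts and mm10. The sources used here give no aligner or strand setting. All 4 single-sample files held the counts of the series table, and 0 columns were left without a sample. Compared pairwise by chi-square (34.6 to 266 per degree of freedom), no library was a copy of another. Symbols were matched for 25275 of 26611 gene numbers (95.0%) in RefSeq's GRCm38.p6 table.

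Genes passing filterByExpr (minimum count 10; 12723 genes) were tested with edgeR 4.0.16 in R 4.3.3 (TMM, robust quasi-likelihood F-test, genotype only, two-sided, Benjamini-Hochberg over all tested genes). The SE of a log2 fold change comes from it and the F statistic. DESeq2 1.42.0 and limma 3.58.1 (voom) were alternatives, as were other scalings and filters, the library number as a block and each library left out. The tests were first tested on simulated data. Leaving libraries out of the count without overlap, and alternatives for counts above a fold change and for other lists, were added after seeing the data.

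Members and lists were chosen with earlier results of these data known. Values in every library are given for the 3 most abundant members of each role, those with an unadjusted p under 0.05 and those called, and for up to 3 genes of other lists, called or else most abundant. Cks2, Cenpe and Cdc6 were added after their values were seen. Hbb-bt and Ahsp were not matched. Promoter windows were searched on both strands.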

Additional observations from a re-analysis of the deposited data

How the results depend on the processing

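The median of the mitosis genes stayed above 0 under the alternatives for which it was computed (all but the further DESeq2 fits with the block or a library left out), from 0.97 to 1.36 on the log2 scale, and 34 to 36 of 36 genes stayed above 0 (30 of 30 where at least 1 CPM in 2 libraries was required). The count without overlap was 29 with either other scaling, and leaving out a library can only keep or raise it. The count within both numbers was 35 with other scalings and with 0.5 CPM added. Counts of called genes moved. A fit without 1 library leaves 1 library in a genotype. Counts from such fits are given without the share of all tested genes and are descriptions only. edgeR called 0 to 2 members with a library left out and DESeq2's Wald test 1, while DESeq2 called 0 to 3 with a library left out, and 6 to 17 members had an unadjusted edgeR p under 0.05. The labels give libraries of both genotypes the numbers 1 and 2 without saying what they share, and the deviations of same-numbered libraries correlated at 0.728 over 12723 genes. With the replicate number as a block, edgeR called 7 members, named above (1.07% of tested genes higher). DESeq2 called 8 (the same and Nusap1), where it called 1.89% of tested genes in either direction. With the block, 28 members had an unadjusted edgeR p under 0.05, and the share of all tested genes at that level was not computed. Directions that turned, all without a call, are given with the range over fits without 1 library. Cenpe also turned with voom (-0.98) and with DESeq2 and the block (-0.81), and Cks2 with DESeq2 without WT library 2 (-0.0035). Mki67 ranged from -0.63 (without KO library 2) to 3.01, Aurka from -0.050 (without KO library 1) to 0.37 and Cenpe from -6.26 (without KO library 2) to 1.71, with -0.08 without WT library 1. Outside the set, Foxm1 ranged from -0.51 (without KO library 2) to 1.27, with -0.10 without WT library 1. Without KO library 1, Bub3 was at -0.080 (highest 0.45), Pcna at -0.080 (highest 0.59), Rbbp4 at -0.23 (highest 0.33; -0.06 without WT library 2), Mcm4 at 0.13 (lowest -0.21; 0.0042 without WT library 2) and Klf2 at 0.20. Klf2 ranged from -0.33 to 0.25 (without WT library 2), and Btg2 from -0.25 to 0.075 (without KO library 2). The median of the regulators turned to 0.0023 with DESeq2's size factors and with DESeq2's test, and ranged from -0.040 to 0.045 (without KO library 1). The cause was not tested.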

Other observations

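Library number and gene length went together among the mitosis genes. Of the 5 members with a gene length of at least 5000 bases, WT library 2 exceeded WT library 1 in 5 and KO library 2 exceeded KO library 1 in 4. Across the 36 genes, Spearman's rho between gene length and the log2 ratio of library 2 to library 1 was 0.58 in WT and 0.46 in KO. Across all tested genes it was 0.49 and 0.51, and the genes share the libraries. Between genotypes, rho of the fold change with length was 0.04 over the 36 and -0.18 over all tested genes. These are descriptions over genes, which are not independent replicates.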
